A study of Mus musculus with 6 samples.

Results

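The genes described here are the TGF-beta and activin ligands and receptors, 10 genes taken by name from the 27506 in the count table. They are the TGF-beta ligand genes Tgfb1, Tgfb2 and Tgfb3, the TGF-beta receptor genes Tgfbr1, Tgfbr2 and Tgfbr3, the activin subunit genes Inhba and Inhbb, and the activin type II receptor genes Acvr2a and Acvr2b. The genes were taken by name with earlier results of these data known, and all 10 were among the 19330 genes that passed the filter on low counts. Bulk RNA-seq was performed on pulp tissue taken from lower first molars of C57BL/6 mice at P3.5 (3.5 days after birth), around the time when the molar root begins to form. The 3 control libraries came from Ror2 fl/fl mice, whose labels name no Cre, and the 3 mutant libraries came from Osr2-Cre;Ror2 fl/fl mice, bred from Osr2-Cre;Ror2 fl/+ fathers and Ror2 fl/fl mothers. All 6 libraries therefore carry floxed Ror2 alleles, and with no Cre-only group, effects of Cre itself and of the loss of Ror2, a receptor for non-canonical Wnt ligands, cannot be told apart. Osr2-Cre acts in the dental mesenchyme and the alveolar bone and spares the dental epithelium, so a whole-tissue library mixes recombined and unrecombined cells.

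TGF-beta ligands are secreted in a latent form that is held in the extracellular matrix and has to be released before it can bind. The released ligand brings together the type II receptor Tgfbr2 and the type I receptor Tgfbr1, and activins, which are dimers of inhibin beta subunits, likewise use the type II receptors Acvr2a or Acvr2b with the type I receptor Acvr1b. Both routes lead to phosphorylation of Smad2 and Smad3, which enter the nucleus with Smad4, and in the tooth this signaling is known for its roles in odontoblast differentiation, root formation and the exchange of signals between epithelium and mesenchyme.

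Expression is given as CPM, counts relative to the library total, after TMM scaling, which limits the weight of a few very abundant genes. The libraries held 56134770 to 62628940 estimated counts. Ror2 was read at 38.2, 36.2 and 36.7 CPM in control libraries 1 to 3 and at 27.9, 28.1 and 26.3 CPM in mutant libraries 1 to 3, a log2 fold change (mutant minus control) of -0.43 with an adjusted p of 0.0134 in edgeR's quasi-likelihood test (0.0664 and 0.0752 without control library 2 or 3). Markers of odontoblasts and dental mesenchyme were present in every library, but the labelled pulp also held enamel organ RNA, with 8 dental epithelium markers summing to 171400 to 191700 CPM in controls and 185000 to 255200 CPM in mutants. The sum of 6 skeletal muscle markers was 10.4 to 35.9 CPM in controls and 2.605 to 3.491 CPM in mutants, and that of 3 erythroid markers was 212 to 482 and 43.3 to 152 CPM. No marker of these lists was at 0 in all libraries. Mutant library 2 stood apart from the other mutant libraries, with 50.6 on the second principal component against -28.1 and -34.9. Among all genes tested, fold changes followed the GC content of the transcripts, with a median log2 fold change of -0.28 in the fifth of genes with the lowest GC content and 0.22 in the fifth with the highest. The labels also hold codes that they leave unexplained. Their numbers begin with another digit in mutants than in controls. Their letters are WW for control library 1, OW for control libraries 2 and 3 and OR for the mutants. No mutant shares its letters with a control, so that any batch the codes mark between the groups cannot be told apart from the genotype. The letters also divide the controls. In bulk tissue, fewer cells of a type and less RNA per cell cannot be told apart either. Nothing in the labels says whether libraries came from separate animals or litters, and p-values then measure only the spread between these libraries, which may be technical.

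None of the 10 genes passed an adjusted p of 0.05 in edgeR's quasi-likelihood test, whereas 20.2% of all genes tested did, 10.4% higher and 9.84% lower in mutants. Tgfbr1 and Acvr2a had the smallest p-values of the 10, both being lower in every mutant library than in any control library. These 2 genes had unadjusted p-values under 0.05 (edgeR, 2 of 10 genes, against 38.3% of all genes, or 18.7% counting those with lower levels in mutants). They were also the 2 of 10 genes whose groups did not overlap, against 44.7% of all genes, or 22.1% counting lower levels alone. These shares among the 10 genes were below those of all genes in both directions together and close to them among lower genes alone, so that neither count sets the 10 genes apart. The fitted change was below 0 for 7 genes and above 0 for 3, where 9536 of all 19330 genes tested were below 0. The median log2 fold change was -0.164, and that of all genes tested was 0.00736. Without mutant library 2 the log2 fold changes of Tgfb2, Tgfbr2 and Acvr2b were no longer below 0, at 6.66e-05, 0.02 and 0.17. Other tests made more calls. Tgfbr1 and Acvr2a both passed with DESeq2 (adjusted p = 0.0262 and 0.0268, where 28.0% of all genes passed), edgeR's likelihood ratio test (0.0350 and 0.0341, 26.7% of all genes) and limma voom with quality weights (0.0202 and 0.0205, 32.8% of all genes), and none of the other 8 genes did. Both genes also passed in the edgeR test with scaling by library size alone (0.0411 and 0.0431, 19.2% of all genes). For a single gene compared between 3 and 3 libraries, an exact two-sided permutation test can give no p below 0.1, and that was the value for Tgfbr1 and Acvr2a.

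**Figure D1:**
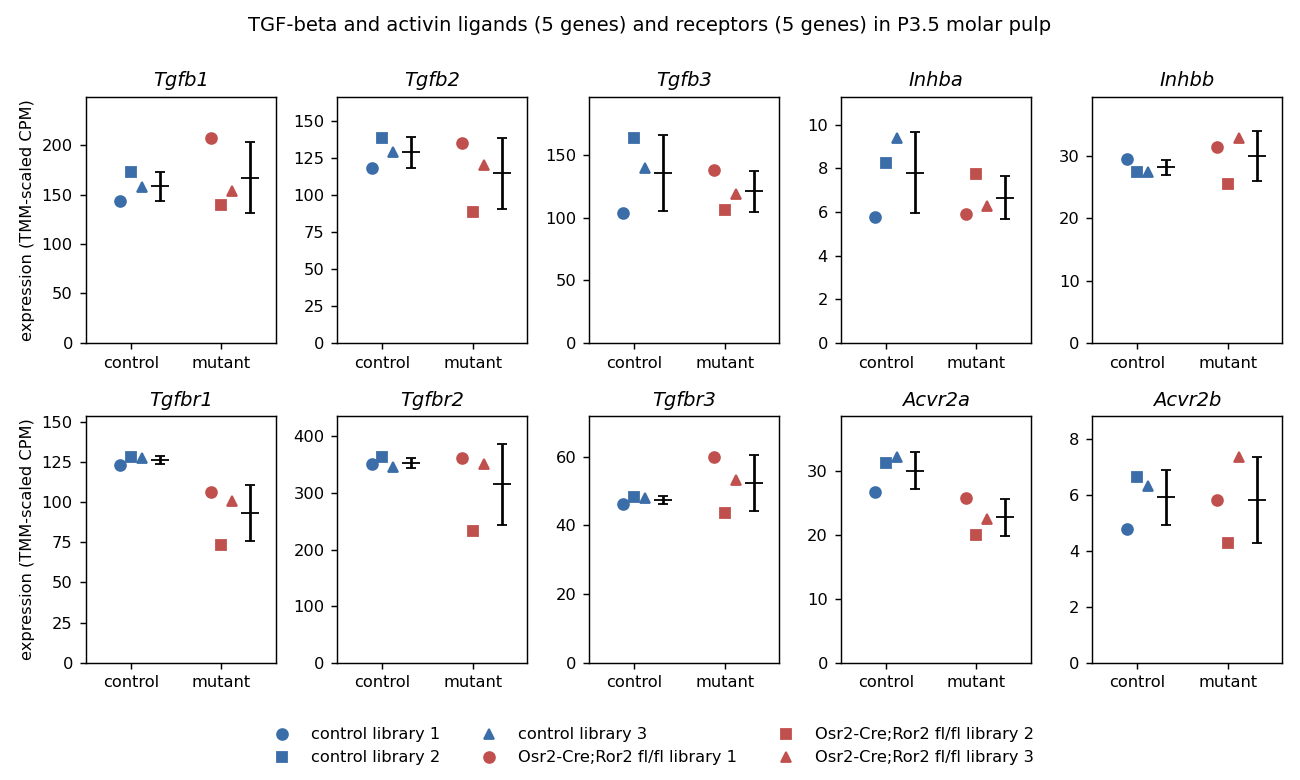
Expression of the 10 genes in each library, as TMM-scaled CPM on axes that start at 0, for 3 control (blue) and 3 Osr2-Cre;Ror2 fl/fl (red) libraries, with horizontal marks for the group mean and bars for the SD. The control and mutant points are separate for Tgfbr1 (at least 123.4 against at most 106.1 CPM) and Acvr2a (at least 26.8 against at most 25.7 CPM) and overlap for the other 8 genes, and mutant library 2 (red square) is the lowest of the 6 points in 8 of the 10 panels.

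Mutant library 2 held the lowest of these values. It had the lowest level of all 6 libraries for 8 of the 10 genes, was below the control mean for all 10, and was below every control library for 8. Its median log2 difference from the control mean was -0.41 over the 10 genes and 0.00827 over all genes tested. Mutant libraries 1 and 3 were below the control mean for 4 and 7 of the 10 genes, and each was below every control library for 2. The shares of all genes tested that meet these criteria in each library were not counted. The counts can therefore not be called particular to the 10 genes. Without mutant library 2, 19.0% of all genes tested passed, and of the 10 genes Tgfbr1 did.

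The promoters of 4 of the genes are shown because they set the 2 receptor genes with the smallest p-values, Tgfbr1 and Acvr2a, beside the 2 ligand genes with a TATA box, Tgfb2 and Inhba. Sequences are the 250 bases before the gene's start in RefSeq (build GRCm38.p6), written 5′ to 3′ on the gene's strand, and 8 of the 10 genes had an entry, Tgfb3 and Tgfbr3 being those with none. Capitals mark the GC box (GGGCGG or its complement CCGCCC), the CCAAT box (CCAAT or ATTGG) and the TATA box (TATAAA or TTTATA), and no marked stretches overlap in these 4 promoters. The windows are chr4:47352972-47353221 (plus strand) for Tgfbr1, chr2:48813859-48814108 (plus strand) for Acvr2a, chr1:186705990-186706239 (minus strand) for Tgfb2 and chr13:16011601-16011850 (plus strand) for Inhba.
Tgfbr1: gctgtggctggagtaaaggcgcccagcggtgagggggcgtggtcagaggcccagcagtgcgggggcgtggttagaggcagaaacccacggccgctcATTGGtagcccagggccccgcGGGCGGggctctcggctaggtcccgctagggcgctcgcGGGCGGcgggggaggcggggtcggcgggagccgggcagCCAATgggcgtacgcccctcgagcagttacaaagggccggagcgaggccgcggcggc
Acvr2a: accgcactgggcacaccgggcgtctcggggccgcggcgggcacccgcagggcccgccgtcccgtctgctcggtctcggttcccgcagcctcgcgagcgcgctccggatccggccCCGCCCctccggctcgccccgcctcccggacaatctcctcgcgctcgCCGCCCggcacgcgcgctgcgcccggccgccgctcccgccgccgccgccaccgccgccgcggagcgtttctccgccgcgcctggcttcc
Tgfb2: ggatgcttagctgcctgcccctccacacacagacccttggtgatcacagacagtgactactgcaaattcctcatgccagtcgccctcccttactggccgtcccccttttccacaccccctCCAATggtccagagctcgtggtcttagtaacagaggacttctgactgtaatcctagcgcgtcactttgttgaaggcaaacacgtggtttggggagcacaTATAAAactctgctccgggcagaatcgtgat
Inhba: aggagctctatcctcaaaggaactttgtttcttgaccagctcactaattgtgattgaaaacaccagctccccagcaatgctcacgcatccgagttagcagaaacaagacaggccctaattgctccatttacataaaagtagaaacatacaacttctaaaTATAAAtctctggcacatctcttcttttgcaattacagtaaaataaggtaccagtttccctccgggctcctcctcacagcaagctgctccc

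The Acvr2a promoter was 82.0% G or C with 49 CG pairs and that of Tgfbr1 74.8% with 29, while those of Tgfb2 and Inhba were 53.6% with 8 and 43.2% with 3. The medians over the 27025 promoters of the same length, 1 for each gene, were 52.0% and 6 CG pairs. Acvr2a had 2 GC boxes, and Tgfbr1 had 2 GC boxes and 2 CCAAT boxes. A GC box stood in 32.9% of all promoters, a CCAAT box in 34.5% and a TATA box in 13.0%. Among the promoters not shown, that of Tgfb1 held 5 GC boxes, that of Acvr2b 3 and that of Inhbb 1, and that of Tgfbr2 held 2 CCAAT boxes. The Tgfb1 promoter was 75.2% G or C with 21 CG pairs and that of Acvr2b 72.8% with 24. Those of Inhbb and Tgfbr2 were 68.0% with 21 and 58.4% with 12. A high G or C content was thus not particular to Tgfbr1 and Acvr2a. A further search on both strands for the letters CAGACA, known from SMAD-binding elements, and TGANTCA, known from AP-1 sites, found 1 match to the first, in the Tgfb2 promoter, and none to the second in the 8 promoters. All promoters held them in 17.1% and 6.87% of cases. These are matches of letters in a window and not measured binding sites.

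The 3 TGF-beta ligand genes had overlapping levels in controls and mutants. Tgfb1 encodes the ligand that is stored in dentin and bone matrix, and the gene lies at chr7:25687002-25705077 (mm10, plus strand). Its level was 143.9, 173.2 and 157.9 CPM in control libraries 1 to 3 and 207.6, 139.6 and 154.0 CPM in mutant libraries 1 to 3. Mutant library 1 was the highest of all 6 and mutant library 2 the lowest, and the log2 fold change was 0.08 (SE 0.16, adjusted p = 0.749, edgeR), turning to -0.11 without mutant library 1 and to -0.11 with an offset for the GC content of the transcripts. Tgfb2, at chr1:186622792-186705989 on the minus strand, encodes a ligand whose binding to the type II receptor is aided by the co-receptor Tgfbr3. It was read at 118.2, 138.7 and 129.3 CPM in controls and 135.3, 88.5 and 120.3 CPM in mutants. Mutant library 2 alone was below all controls, and the log2 fold change of -0.17 (SE 0.16, adjusted p = 0.468, edgeR) came to 6.66e-05 without that library. Tgfb3, at chr12:86056745-86079041 on the minus strand, encodes a ligand known from fusion of the palate. Its level was 104.1, 164.2 and 139.8 CPM in controls and 138.7, 106.3 and 119.2 CPM in mutants, all 3 mutant values lying inside the control range (log2 fold change -0.16, SE 0.18, adjusted p = 0.520, edgeR). The change was -0.33 (adjusted p = 0.162) without control library 1 and -0.02 (0.968) without control library 2, the lowest and the highest control. Gm48008 and Gm37804, both on the opposite strand, share 7.34% of the 75-base stretches of Tgfb3, and reads could be divided among these genes.

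Of the receptor genes, Tgfbr1 had the largest fitted change of the 10. It encodes the type I receptor kinase that phosphorylates Smad2 and Smad3, and it lies at chr4:47353222-47414931 on the plus strand. Its level was 123.4, 127.8 and 127.4 CPM in control libraries 1 to 3 and 106.1, 73.1 and 100.6 CPM in mutant libraries 1 to 3. The controls lay close together and every mutant library lay below them, mutant library 2 being the lowest. The fitted level was 26.1% lower in mutants (log2 fold change -0.44, SE 0.14, 95% confidence interval of the ratio 0.589 to 0.927), with an unadjusted p of 0.0149 and an adjusted p of 0.0618 in edgeR's test. Without mutant library 2 the change was smaller and the adjusted p lower, at -0.28 and 0.0434 (edgeR), and without any one of the other 5 libraries the adjusted p was between 0.0607 and 0.177. The transcript of Tgfbr1 has a GC content of 42.3%, which puts it in the fifth of genes with the lowest GC content, where the median log2 fold change of all genes was -0.28. With an offset for GC content in the edgeR fit, under which 14.6% of all genes tested passed, the log2 fold change of Tgfbr1 was -0.18 (SE 0.11, adjusted p = 0.282).

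Tgfbr2 encodes the type II receptor that binds the ligand first and activates Tgfbr1, and it lies at chr9:116084293-116175360 on the minus strand. It was read at 351.8, 362.8 and 345.5 CPM in controls and 362.6, 232.4 and 351.1 CPM in mutants. Mutant libraries 1 and 3 lay inside the control range and mutant library 2 far below it, so that the log2 fold change of -0.16 (SE 0.17, adjusted p = 0.509, edgeR) became 0.02 without mutant library 2 and was -0.18 with the GC offset (adjusted p = 0.449, edgeR). Tgfbr3, at chr5:107106570-107289629 on the minus strand, encodes betaglycan, a co-receptor without kinase activity that presents TGF-beta ligands and also binds inhibin. Its level was 46.1, 48.1 and 48.0 CPM in controls and 59.8, 43.5 and 53.3 CPM in mutants. Mutant libraries 1 and 3 were above every control and mutant library 2 was below, and the log2 fold change was 0.14 (SE 0.12, adjusted p = 0.430, edgeR). Without mutant library 2 it was 0.26 with an adjusted p of 0.0612, and without mutant library 1 it was 0.03 with an adjusted p of 0.866 (edgeR). It was above 0 under all 21 alternatives. Gm43422, on the same strand, shares 3.48% of its 75-base stretches.

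**Figure D2:**
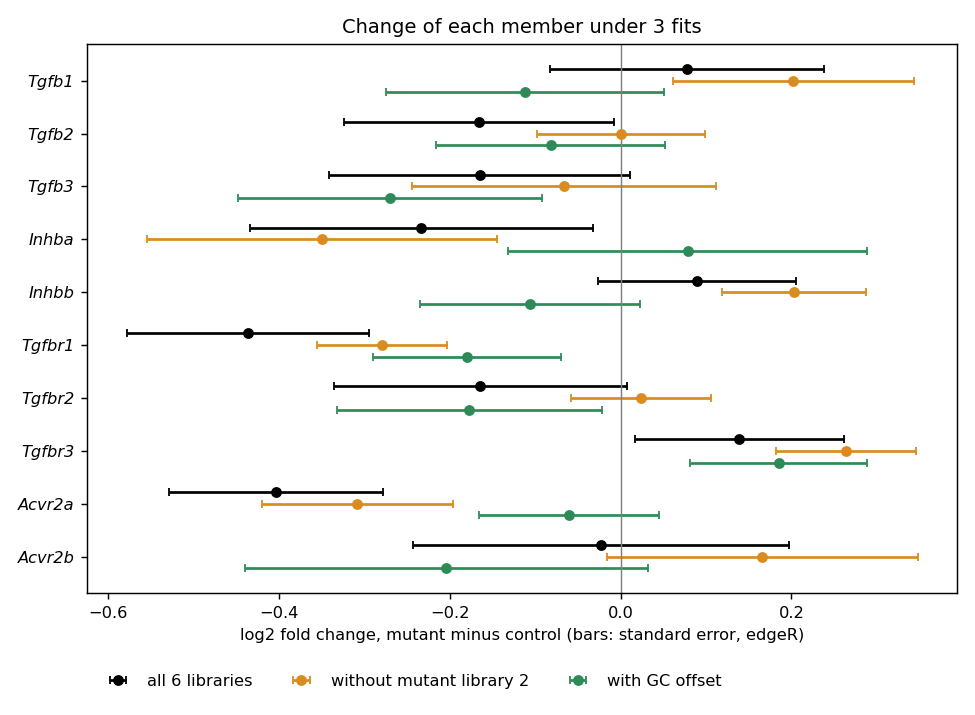
Log2 fold change (mutant minus control) of each gene in the edgeR fit of all 6 libraries (black), without mutant library 2 (orange) and with an offset for GC content (green), with bars for the standard error. The estimates for Tgfbr1 go from -0.44 to -0.28 and -0.18 and those for Acvr2a from -0.40 to -0.31 and -0.06, while Tgfbr3 is above 0 in all 3 fits.

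The activin subunit genes did not separate the groups. Inhba, at chr13:16011851-16031621 on the plus strand, encodes the beta A subunit that forms activin A, a signal of the dental mesenchyme in early tooth development. It was one of the 2 weakest of the 10 genes, at 349 to 581 estimated counts per library, and was read at 5.78, 8.25 and 9.41 CPM in controls and 5.90, 7.76 and 6.27 CPM in mutants. Control library 1 was the lowest of the 6, and the log2 fold change of -0.23 (SE 0.20, adjusted p = 0.423, edgeR) became 0.08 with the GC offset, its transcript being at 41.4% GC. It was -0.42 (adjusted p = 0.128) without control library 1 and -0.09 (0.830) without control library 3, the highest of the 6. Inhbb, at chr1:119415465-119422248 on the minus strand, encodes the beta B subunit of activin B. Its level was 29.6, 27.5 and 27.5 CPM in controls and 31.5, 25.5 and 33.0 CPM in mutants. Mutant libraries 1 and 3 were above all controls and mutant library 2 below, with a log2 fold change of 0.09 (SE 0.12, adjusted p = 0.599, edgeR) that became -0.11 with the GC offset.

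Of the activin type II receptor genes, Acvr2a separated the groups and Acvr2b did not. Acvr2a encodes a receptor for activins and related ligands, and it lies at chr2:48814109-48903269 on the plus strand, where its 3′ end overlaps that of Orc4, a gene of the origin recognition complex on the opposite strand. Acvr2a was read at 26.8, 31.3 and 32.1 CPM in control libraries 1 to 3 and at 25.7, 19.98 and 22.5 CPM in mutant libraries 1 to 3. The groups were separated by a narrow gap between control library 1 and mutant library 1. The fitted level was 24.4% lower in mutants (log2 fold change -0.40, SE 0.13, 95% confidence interval of the ratio 0.620 to 0.923), with an unadjusted p of 0.0117 and an adjusted p of 0.0543 in edgeR's test. The 2 genes share 6.54% of the 75-base stretches of Acvr2a, and Orc4 itself was 32.8% lower (23.7, 22.6 and 23.3 CPM in controls, 13.8, 17.1 and 15.8 CPM in mutants, adjusted p = 0.0128, edgeR). With the counts of both genes summed, the log2 fold change was -0.47 and the adjusted p 0.0101 (edgeR), a sum that includes the reads of a neighbor that fell. Without mutant library 1 the log2 fold change of Acvr2a alone was -0.50 with an adjusted p of 0.0474 (edgeR). Without any one of the other 5 libraries it was between -0.49 and -0.31 with an adjusted p between 0.0551 (without control library 1) and 0.193 (without control library 3). Acvr2a has the lowest transcript GC content of the 10 genes, 39.9%, and with the GC offset its log2 fold change was -0.06 (SE 0.11, adjusted p = 0.713, edgeR). Acvr2b, at chr9:119402118-119434995 on the plus strand, encodes the second receptor of this type. Its level was 4.80, 6.64 and 6.33 CPM in controls and 5.83, 4.30 and 7.35 CPM in mutants, with the highest and the lowest library both among the mutants, and the log2 fold change was -0.02 (SE 0.22, adjusted p = 0.951, edgeR), or 0.17 without mutant library 2.

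Levels of different genes were compared per length, as CPM per kilobase of merged exons. In controls the order was Tgfbr2 (43.2 ± 1.1, SD, n = 3), Tgfb3 (40.2 ± 8.9), Tgfb1 (31.4 ± 2.9), Tgfb2 (22.2 ± 1.8), Tgfbr1 (19.3 ± 0.37), Tgfbr3 (7.25 ± 0.17), Inhbb (6.63 ± 0.29), Acvr2a (5.29 ± 0.51), Acvr2b (1.51 ± 0.25) and Inhba (1.22 ± 0.29). Thus Tgfbr2 was read at a higher level per length than its partner Tgfbr1 in every library, and Inhbb at a higher level than Inhba. The ranges of neighbors in this order overlapped for Tgfbr2 and Tgfb3, for Tgfb3 and Tgfb1, and for Acvr2b and Inhba. The order of the means was the same in mutants, where the ranges of Tgfb2 and Tgfbr1 and of Tgfbr3 and Inhbb also overlapped. The order depends on the gene length used: with the longest transcript in place of merged exons, Tgfb1 came first in both groups, at 61.5 CPM per kilobase in controls.

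**Figure D3:**
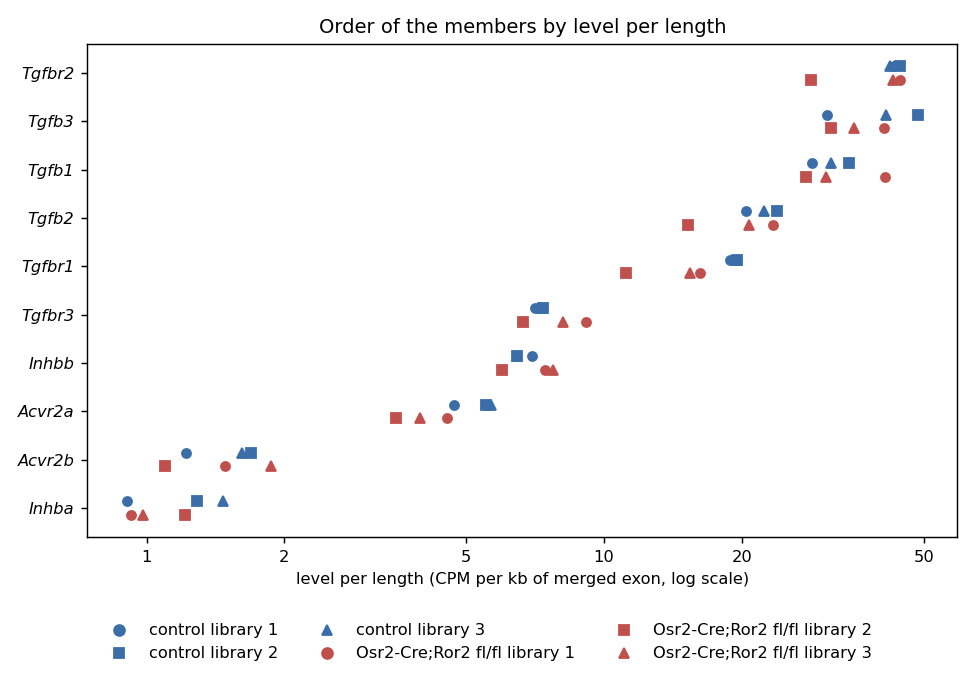
Level per length of the 10 genes (CPM per kilobase of merged exons, log scale) in each control (blue) and mutant (red) library, ordered by the control mean. Levels run from 0.90 for Inhba in control library 1 to 48.6 for Tgfb3 in control library 2, and the red points of Tgfbr1 and Acvr2a all lie to the left of the blue ones.

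Within a library, the balance among receptor genes was compared as each gene's share of their summed level per length, a measure that scaling between libraries does not touch. Tgfbr1 made up 27.4%, 27.5% and 28.2% of the 3 TGF-beta receptor genes in controls and 23.3%, 24.2% and 23.2% in mutants. Tgfbr3 made up 10.2%, 10.3% and 10.6% in controls and 13.1%, 14.4% and 12.3% in mutants. The share of Tgfbr2 overlapped between the groups, from 61.1% to 62.4% and from 61.4% to 64.6%. So the share of the type I receptor gene was lower and that of betaglycan higher in each mutant library, mutant library 2 included, than in any control. Shares of the same sum depend on each other, and a higher share need not mean a higher level. In mutant library 2 Tgfbr3 itself was at 43.53 CPM, against 46.15 to 48.12 CPM in controls. Acvr2a made up 79.4%, 76.5% and 77.8% of the activin type II receptor genes in controls and 75.3%, 76.3% and 67.9% in mutants, a separation by a narrow margin. The difference between the fitted log2 fold changes of Acvr2a and Acvr2b was -0.38 and turned to 0.14 with the GC offset. Shares among the TGF-beta ligand genes and among the activin subunit genes overlapped between the groups.

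As ratios of CPM, Tgfbr1 to Tgfbr3 was 2.67, 2.66 and 2.65 in controls and 1.77, 1.68 and 1.89 in mutants. Tgfbr2 to Tgfbr3 was 7.62, 7.54 and 7.20 in controls and 6.07, 5.34 and 6.58 in mutants, and Tgfbr1 to Tgfbr2 was 0.351, 0.352 and 0.369 in controls and 0.293, 0.315 and 0.286 in mutants. The controls thus lay close together in each of these ratios and the mutants below them. Among ligand genes, Tgfb1 to Tgfb2 was 1.22, 1.25 and 1.22 in controls and 1.53, 1.58 and 1.28 in mutants, higher in each mutant library. Of the 45 possible ratios among the 10 genes, 16 did not overlap between the groups, against 42.7% of the ratios between any 2 of the genes tested that were above 0 in all libraries. The count of 16 thus does not set the 10 genes apart. The ratios named were picked after all 45 had been seen, and no test was applied to them. The transcripts of Tgfbr1, Tgfbr3 and Tgfbr2 have GC contents of 42.3%, 48.2% and 49.8%, and a ratio between genes of unlike GC content moves with the GC trend. The difference between the fitted log2 fold changes of Tgfbr1 and Tgfbr3 was -0.57 and became -0.36 with the GC offset, and that of Tgfbr1 and Tgfbr2 went from -0.27 to -0.00306. The difference between Tgfbr2 and Tgfbr3 was -0.30 and became -0.36, and that between Tgfb1 and Tgfb2 went from 0.24 to -0.03. That between Acvr2a and Acvr2b changed sign, from -0.38 to 0.14. So the offset removed nearly all of the difference between Tgfbr1 and Tgfbr2 and left that between Tgfbr2 and Tgfbr3.

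**Figure D4:**
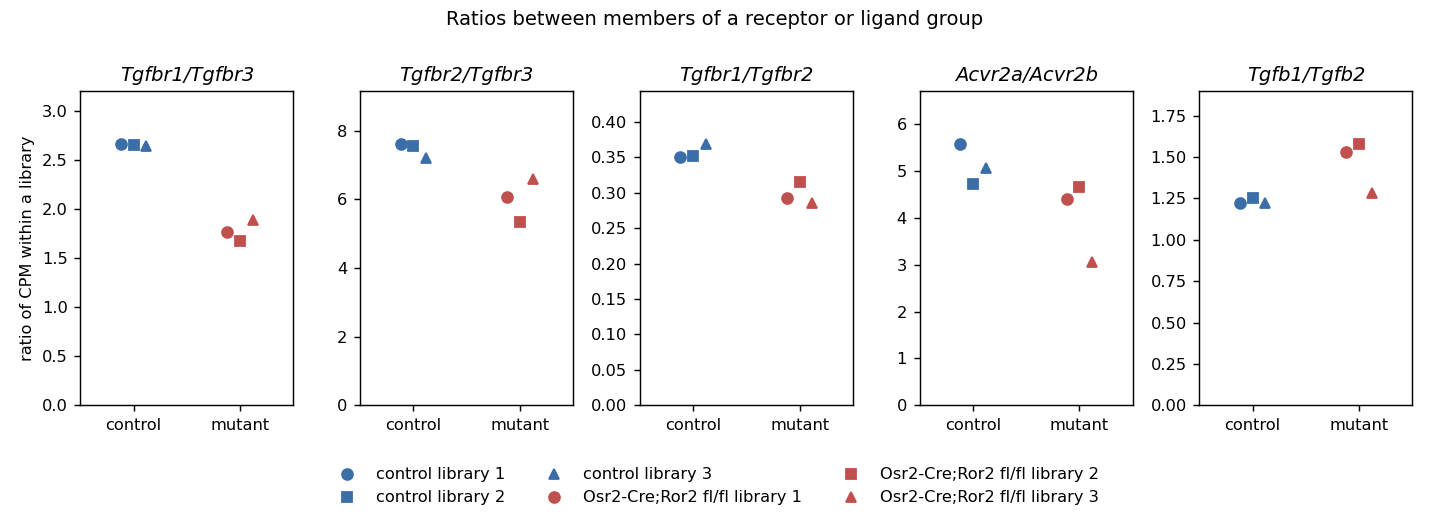
Ratio of CPM between pairs of the 10 genes within each library, on axes that start at 0, for control (blue) and Osr2-Cre;Ror2 fl/fl (red) libraries. In the first panel the 3 control libraries sit between 2.65 and 2.67 and the 3 mutant libraries between 1.68 and 1.89, and the groups are separate in all 5 panels, which were chosen for that.

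The other genes of the pathway were taken from lists of 59 genes, of which 54 were in the table and 53 passed the filter on low counts. Of these 53, 4 rose, 7 fell and 42 did not pass the edgeR test, which is 11 of 53 genes against 20.2% of all genes, and their median log2 fold change was -0.0517. These calls did not hold without some of the libraries. Without control library 2 none of the 53 genes passed, when 910 of 19896 genes tested did. Without control library 3 none passed either, when 872 of 19867 did. At an unadjusted p under 0.05 (edgeR) were 12 and 14 of the 53 genes, and 5081 and 5158 of all genes tested. Without mutant library 3, 7 of the 53 passed, when 5001 of 19831 genes tested did. Genes of ligand storage and release made up 4 of the 7 that fell. Of 12 latency and activation genes, Ltbp1, Fbn1, Fbn2 and Itgb8 fell and none rose, which is 4 of 12 where 9.84% of all genes fell. Ltbp1, a binding protein that tethers latent TGF-beta to the matrix, was read at 51.8, 69.8 and 68.0 CPM in controls and 48.1, 33.0 and 37.7 CPM in mutants (log2 fold change -0.67, SE 0.17, adjusted p = 0.0275, edgeR). Itgb8, the beta subunit of an integrin that releases active TGF-beta, was read at 7.75, 8.51 and 8.66 CPM in controls and 4.21, 2.29 and 4.39 CPM in mutants (log2 fold change -1.19, SE 0.24, adjusted p = 0.0141, edgeR). Every mutant library was below every control for both genes. Fbn1 and Fbn2 encode the fibrillins of the microfibrils to which latent complexes attach. Fbn2 was read at 261.5, 423.5 and 390.1 CPM in controls and 224.0, 142.1 and 137.8 CPM in mutants (log2 fold change -1.09, adjusted p = 0.0193, edgeR). Fbn1 was read at 187.4, 304.1 and 295.1 CPM in controls and 191.1, 107.0 and 142.8 CPM in mutants (log2 fold change -0.83, adjusted p = 0.0468, edgeR). Control library 1 was the lowest control for both fibrillin genes, its Fbn1 level lying below that of mutant library 1, and without mutant library 2 the adjusted p of Fbn1 was 0.0834 (edgeR). With same-numbered libraries taken as blocks, Ltbp1 and Fbn1 did not pass (adjusted p = 0.0623 and 0.0855, edgeR). Fbn2 and Itgb8 did (0.0432 and 0.0233). With the GC offset all 4 genes passed (adjusted p from 0.0189 to 0.0426, edgeR), the log2 fold change of Itgb8 being -0.85. Gm9913 shares 19.6% of the 75-base stretches of Fbn1.

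Among 4 further ligand genes of the activin arm that passed the filter, 1 rose and 1 fell, where 10.4% of all genes rose and 9.84% fell. Inha encodes the inhibin alpha subunit, which pairs with a beta subunit to form inhibin, an antagonist of activin that uses betaglycan as co-receptor. It was read at 5.73, 5.44 and 4.86 CPM in controls and 14.6, 30.8 and 10.9 CPM in mutants. Each mutant library was above all controls, mutant library 2 by the widest margin, and the log2 fold change was 1.81 (SE 0.35, adjusted p = 0.0130, edgeR), or 1.26 with an adjusted p of 0.00388 without mutant library 2. Gdf1 fell (log2 fold change -2.32, adjusted p = 0.0322, edgeR), from 21, 81 and 54 estimated counts to 6, 16 and 8. All of its 75-base stretches are shared with Cers1, which is transcribed together with it, so the counts of Gdf1 are uncertain, and Cers1 rose, from 3.12, 2.52 and 2.64 CPM to 5.16, 5.60 and 4.61 CPM (adjusted p = 0.0107, edgeR). Mstn, which encodes myostatin, a muscle product, had 24, 44 and 21 estimated counts in controls and 1, 13 and 2 in mutants (adjusted p = 0.0575, edgeR), and the skeletal muscle markers were lower in the same libraries. The part of muscle tissue in the Mstn counts was not tested.

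**Figure D5:**
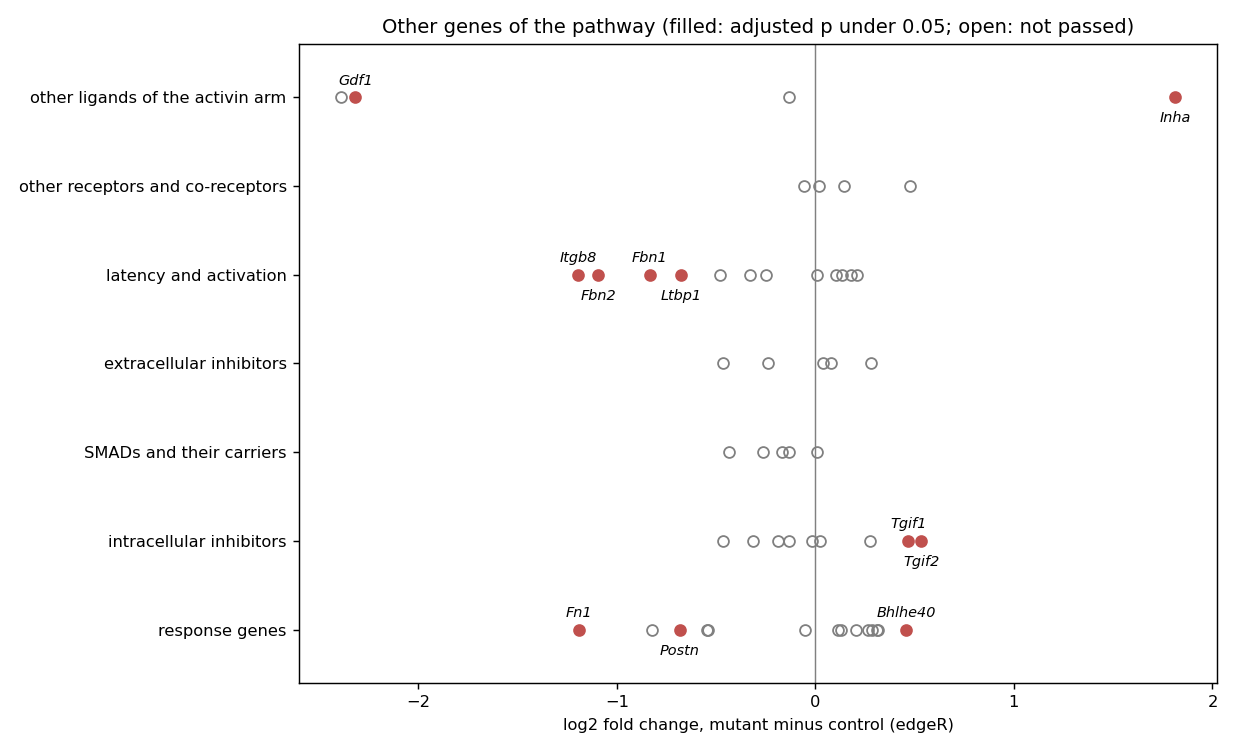
Log2 fold change (mutant minus control, edgeR) of the 53 other pathway genes tested, by list, with filled red points and names for the 11 with an adjusted p under 0.05 and open points for the rest. The 4 filled points among latency and activation genes all lie below 0, from -1.19 to -0.67, and those of receptors, extracellular inhibitors and SMADs are all open.

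None of the 4 other receptor and co-receptor genes, the 5 extracellular inhibitor genes or the 5 genes of SMADs and their carriers passed the edgeR test. Of these 14, 2 had unadjusted p-values under 0.05 (edgeR), against 38.3% of all genes. Acvr1b, the type I partner of Acvr2a and Acvr2b, was read at 85.1, 87.8 and 86.4 CPM in controls and 99.3, 85.1 and 102.3 CPM in mutants (log2 fold change 0.15, adjusted p = 0.308, edgeR). Its groups overlapped, mutant library 2 being level with the lowest control. The log2 fold changes of the type I receptor genes Acvr1c and Acvrl1 were 0.48 and -0.06 (adjusted p = 0.547 and 0.807, edgeR). Fstl3, which encodes a secreted binding protein of activin, had 13.1, 11.5 and 11.1 CPM in controls and 14.6, 13.3 and 15.3 CPM in mutants (log2 fold change 0.28, adjusted p = 0.116, edgeR), and shares 45.7% of its 75-base stretches with Prss57. Dcn and Bgn, which encode the matrix proteoglycans decorin and biglycan, had log2 fold changes of -0.47 and -0.24 (adjusted p = 0.230 and 0.545, edgeR). Trim33, a nuclear partner of Smad2 and Smad3, had the smallest p-value of the SMAD list, at 60.8, 68.5 and 65.5 CPM in controls and 53.3, 37.6 and 53.4 CPM in mutants (log2 fold change -0.43, adjusted p = 0.0638, edgeR). Smad2 was at 69.0, 74.3 and 72.1 CPM in controls and 67.4, 50.5 and 61.7 CPM in mutants (adjusted p = 0.139, edgeR). As for Tgfbr1, mutant library 2 was the lowest of the 6 for both genes. Smad4, the partner of Smad2 and Smad3, was at -0.17 on the log2 scale (mutant minus control, adjusted p = 0.426, edgeR).

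Inside the cell, 2 of 9 inhibitor genes rose, where 10.4% of all genes rose, and none fell. Tgif1 and Tgif2 encode homeobox proteins that hold back transcription at SMAD-bound sites. Tgif1 was read at 24.9, 24.7 and 25.4 CPM in controls and 33.5, 36.5 and 33.8 CPM in mutants (log2 fold change 0.47, SE 0.09, adjusted p = 0.0113, edgeR). Tgif2 was read at 29.1, 27.0 and 27.9 CPM in controls and 39.0, 41.1 and 41.6 CPM in mutants (log2 fold change 0.53, SE 0.09, adjusted p = 0.00645, edgeR). In both genes the 3 libraries of a group lay close together and apart from the other group, mutant library 2 not standing out. Tgif2 shares 64.4% of its 75-base stretches with 3 other genes, so its counts are less certain than those of Tgif1, which shares none. With the GC offset the adjusted p-values were 0.0104 and 0.0163 (edgeR). With same-numbered libraries taken as blocks, Tgif1 did not pass (adjusted p = 0.0513, edgeR) and Tgif2 did (0.0364). Smurf2, a ubiquitin ligase of this list, was at -0.31 on the log2 scale (mutant minus control, adjusted p = 0.141, edgeR).

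Of 14 genes known to respond to TGF-beta, 1 rose and 2 fell, which is 3 of 14 against 20.2% of all genes. Bhlhe40, a transcriptional repressor, was read at 26.6, 21.9 and 23.5 CPM in controls and 34.1, 34.1 and 30.6 CPM in mutants (log2 fold change 0.46, adjusted p = 0.0240, edgeR). Postn encodes periostin, a matrix protein of periodontal ligament and periosteum, and was read at 106.7, 154.8 and 164.6 CPM in controls and 93.4, 87.8 and 84.4 CPM in mutants (log2 fold change -0.68, adjusted p = 0.0241, edgeR). Fn1 encodes fibronectin, and was read at 321.7, 647.7 and 568.1 CPM in controls and 292.5, 160.5 and 221.5 CPM in mutants (log2 fold change -1.19, adjusted p = 0.0272, edgeR). The groups did not overlap for any of these 3 genes, which were named for passing the test, and control library 1 was the control nearest to the mutants for all of them. Over the whole list the groups did not overlap for 7 of 14 genes, against 44.7% of all genes. With the GC offset Postn no longer passed (log2 fold change -0.30, adjusted p = 0.189, edgeR). With same-numbered libraries taken as blocks, Bhlhe40, Postn and Fn1 did not pass (adjusted p = 0.0608, 0.0531 and 0.0589, edgeR). The other 11 response genes did not pass, and the median log2 fold change of the list was 0.12.

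Marker lists of other tissues were tested in the same edgeR fit, in which 10.4% of all genes rose and 9.84% fell. All 6 skeletal muscle markers fell, as did the erythroid genes Hba-a1 and Alas2 (2 of 3) and the macrophage gene Adgre1 (1 of 7 leukocyte markers). The mesenchymal transcription factor gene Msx2 (1 of 10 odontoblast and mesenchyme markers) rose. Adgre1 and Msx2 do not stand for their lists. Of the 7 leukocyte markers 4 were fitted above 0, with a median log2 fold change of 0.248. Of the 10 odontoblast and mesenchyme markers 7 were fitted below 0, with a median of -0.237. None of 8 dental epithelium, 6 endothelium, 5 pericyte and smooth muscle or 4 bone markers passed. Of them, 4, 0, 1 and 0 had an unadjusted p under 0.05 (edgeR), where 38.3% of all genes did. Beside these, the 10 ligand and receptor genes together summed to 954 to 1089 CPM in controls and 741 to 1079 CPM in mutants. The part of tissue composition in the values of Tgfbr1 and Acvr2a was not tested.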

How the data were processed

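Libraries were grouped by the genotype in the labels, 3 control and 3 mutant. The authors deposited estimated counts per gene without normalization (47.8% exactly whole), which were rounded here. The design had foreseen whole counts. They also deposited a normalized signal table of 22061 genes, each value being 1 factor per library times the count plus 1, to within 0.000822%. Reads of 75 cycles were, per the paper's methods, aligned to mm10 with TopHat and counted over exons, while the submitters' processing notes name STAR 2.6.1d and Partek. Strand use and annotation are not given in the sources used here. The count table holds 6 columns of other samples, which were not used.

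Analyses used R 4.3.3, edgeR 4.0.16 (TMM, filterByExpr, quasi-likelihood test, Benjamini-Hochberg adjustment over 19330 genes), limma 3.58.1 and DESeq2 1.42.0, and were tested on simulated data. The biological coefficient of variation was 18.7%. If each estimated count is taken as 1 read, library totals of 56134770 to 62628940 make counting error small for all but the weakest genes. On that footing, the spread between libraries within each group exceeded counting noise. The number of reads stated in the paper's methods is smaller than these totals together, and the sources used here do not explain the difference. Coordinates, exon lengths and GC content are from GENCODE M21 (27484 of 27506 genes matched), and genes sharing at least 20 stretches of 75 bases were taken as sharing sequence. Promoters are from RefSeq.

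The 10 genes, the pathway lists and the marker lists were chosen with earlier results of these data known. The result of 1 marker list is not reported here. Named from the other pathway lists were genes with an adjusted p under 0.05 and the 3 of each list with the smallest p-value, and marker genes, ratios and neighbors were named after their values were seen. Genes with a similar pattern were to be named only for members of the 10 that passed the test, and none did. Alternatives were other tests, scalings and filters, the normalized table, a replicate block, a GC offset and leaving out each library. Offsets for GC content and length and sums over genes sharing sequence were added after seeing the data. The paper's methods speak of 3 pairs of samples and do not say which libraries belong together. Same-numbered libraries did not deviate together (correlations of -0.1003, -0.0795 and -0.00375), so the numbers were not taken to pair them. The main test was unpaired, and a pairing by other features of the samples is not known.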

Additional observations from a re-analysis of the deposited data

How the results depend on the processing

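Of the 10 genes, none passed under 14 of 21 alternatives, 1 passed under 3 and 2 passed under 4. The 2 were Tgfbr1 and Acvr2a, with DESeq2, edgeR's likelihood ratio test, limma voom and scaling by library size alone. Acvr2a alone passed when summed with Orc4, making 1, and leaving out each library gave 0 to 1. Both stayed below 0 under all 21 alternatives, Tgfbr1 from -0.54 to -0.16 and Acvr2a from -0.50 to -0.05 on the log2 scale, with edgeR, limma or DESeq2 adjusted p-values of 0.0202 to 0.368 and 0.0101 to 0.825. Fitted changes took the other sign under 5 alternatives for Tgfb1, 4 for Inhba, 4 for Inhbb, 3 for Acvr2b, 1 for Tgfb2 and 1 for Tgfbr2, and under none for Tgfb3 and Tgfbr3.

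All genes tested gave 3906 calls and the other pathway genes 11. The counts were 6341 and 18 with limma voom, 2013 and 6 with the replicate block, 1289 and 5 with the GC offset and the block, 1412 and 6 with the GC and length offset and the block, and 872 to 5001 and 0 to 13 when each library was left out. Ror2 was -0.43 on the log2 scale with an adjusted p of 0.0582 (edgeR) under the replicate block. It was from -0.46 to -0.41 when each library was left out, with edgeR adjusted p-values of up to 0.0752. With the GC offset Ror2 was at -0.64 with an adjusted p of 0.00208 (edgeR). Under the block none of the 10 genes passed, with adjusted p-values of 0.0956 for Tgfbr1 and 0.119 for Acvr2a (edgeR). The cause of these differences was not tested. The order of the 10 levels was kept for 10 genes with scaling by library size and for 7 with the longest transcript. Depth limits mainly Acvr2b and Inhba, at 248 to 434 and 349 to 581 estimated counts per library.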
